A study of Mus musculus with 6 samples.

Results

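Protein prenylation enzymes were examined in intestinal epithelial cells of mice in which 1 of them, geranylgeranyl transferase type I (GGTase-I), was targeted through its beta subunit. The group comprised 10 genes: Pggt1b, the targeted gene, Fnta, Fntb, Rabggta, Rabggtb, Chm, Rce1, Icmt, Zmpste24 and Ggps1. All 18 probe sets annotated with exactly 1 of these symbols were taken, out of 45101 on the Affymetrix array, and 18193 genes had such probe sets in all. The members were chosen by gene name, with earlier results of these data known.

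The 3 GGTase-Iβ-deficient mice carried the floxed Pggt1b gene together with Villin-CreERT2, a tamoxifen-inducible recombinase under an epithelial promoter. The 3 control mice carried the same floxed gene and were negative for the recombinase. Both groups were on a mixed 129/SV and C57BL/6 background. Both received 1 mg of tamoxifen on 3 consecutive days, and cells were taken on day 6 after the first dose. Each mouse gave 1 array. Recombinase and deletion come together in this design and cannot be told apart. Cells of the preparation in which the Villin promoter is silent, such as lymphocytes, do not undergo the deletion. The labels name no age, sex, intestinal segment or scan batch.

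Prenylation attaches a farnesyl or geranylgeranyl lipid to a cysteine near the end of a protein and lets small GTPases and lamins reach membranes. Farnesyltransferase and GGTase-I share the alpha subunit, Fnta, and differ in the beta subunit, Fntb or Pggt1b, and both read a C-terminal CAAX motif (cysteine, aliphatic residues, variable last residue). Rab proteins are instead presented by an escort protein such as Chm to Rab geranylgeranyl transferase, a dimer of Rabggta and Rabggtb. After lipid attachment to a CAAX protein, Rce1 removes the last residues and Icmt methylates the exposed cysteine. Zmpste24 cuts farnesylated prelamin A. Ggps1 makes geranylgeranyl diphosphate, the lipid donor of both geranylgeranyl transferases.

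No prenylation enzyme passed the test between deficient and control mice, and the RNA of the targeted gene overlapped between them. Of 18 probe sets, 16 lay above 5 (log2) on at least 3 arrays and were tested, and 0 of these 16 passed (limma, Benjamini-Hochberg adjusted p under 0.05). At an unadjusted limma p under 0.05 the count was also 0. Over all 16281 probe sets tested, 1.44% passed, 1.35% lower and 0.0921% higher in deficient mice, so a count of 0 in 16 lies near the background and is not particular to these genes. At an unadjusted p under 0.05, 16.3% of all probe sets passed. The tested probe sets were higher in deficient mice by mean in 10 cases and lower in 6, with a median log2 change of 0.03, against 0.00 over all probe sets tested. The median size of the change, whatever its sign, was 0.10 on the log2 scale for the prenylation enzymes and 0.27 over all probe sets tested. Their median residual SD between arrays of a group was 0.23, against 0.29 over all.

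The precision of the null results was set by the 3 arrays per group. For 15 of the 16 tested probe sets the 95% interval of the log2 change lay between -1 and 1, so changes of 2-fold or more in either direction lay outside it. The same was true of 62.2% of all probe sets tested. Smaller changes lie inside these intervals, and missing the threshold does not show that the levels were equal.

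**Figure D1:**
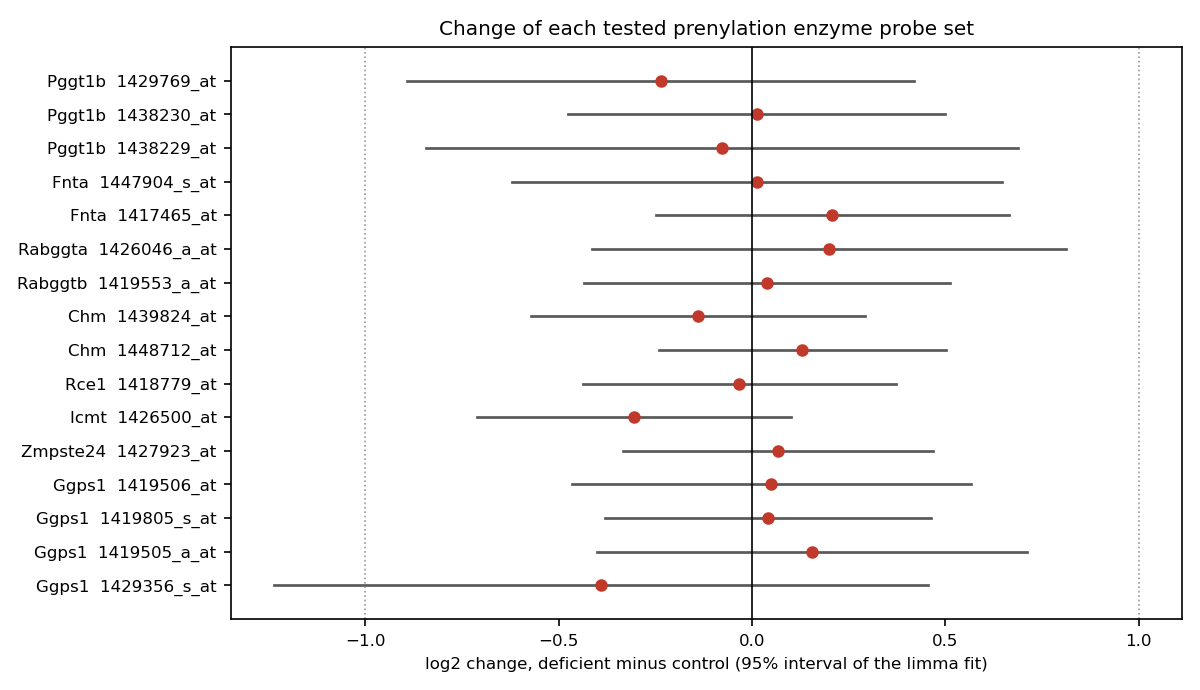
Log2 change (deficient minus control, x axis) of the 16 tested prenylation enzyme probe sets, 1 per row. Points are limma estimates from 3 arrays per group, lines are 95% intervals, and dotted lines mark 2-fold changes. Every interval crosses 0, and all but that of Ggps1 1429356_s_at stay inside the dotted lines.

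The 4 probe sets of Pggt1b, which encodes the GGTase-I beta subunit, did not tell one story. The brightest, 1429769_at, read 9.75, 8.88 and 8.83 in deficient mice 1, 2 and 3, against 9.30, 9.55 and 9.33 in control mice 1, 2 and 3 (log2 values throughout). Deficient mouse 1 was thus the highest of the 6 and the other two deficient mice were the lowest, so the groups overlapped. The means were 9.16 ± 0.52 in deficient and 9.39 ± 0.14 in control mice (SD, n = 3 each), a log2 change of -0.24 ± 0.28 (SE, limma adjusted p = 0.691). The 95% interval ran from -0.89 to 0.42, and therefore held a fall as large as 1.86-fold as well as a rise of 1.34-fold. Without deficient mouse 1 the change was -0.54, with a limma adjusted p of 0.324. Leaving out 1 of the other arrays gave -0.28 to -0.07, with -0.10 and -0.07 without deficient mice 2 and 3 and -0.16 without control mouse 2.

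Probe set 1438229_at of Pggt1b read 6.51, 5.82 and 5.32 in deficient mice and 5.91, 6.26 and 5.72 in control mice. Deficient mouse 1 was again the highest of the 6 arrays and deficient mouse 3 the lowest, and the change was -0.08 ± 0.32 (SE, limma adjusted p = 0.917), from -0.39 without deficient mouse 1 to 0.21 without deficient mouse 3. Across the 6 arrays it followed the brightest probe set, with a Pearson r of 0.88 and a Spearman rho of 0.83. Another probe set, 1438230_at, read 8.31, 8.44 and 7.89 in deficient mice and 8.20, 8.03 and 8.37 in control mice. It did not follow the brightest one (r = 0.16, rho = 0.14), and its change was 0.01 ± 0.21 (SE, limma adjusted p = 0.981). The last, 1429770_at, stayed below 5 on all 6 arrays, at 3.61, 4.16 and 3.68 in deficient mice and 3.60, 3.66 and 3.74 in control mice, and was not tested. These correlations are descriptions over 6 arrays that share the 2 groups. Where these probe sets sit with respect to the floxed segment was not known, and one outside that segment would miss the deletion. The values therefore do not check the genotype labels, on which every direction in the text rests.

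**Figure D2:**
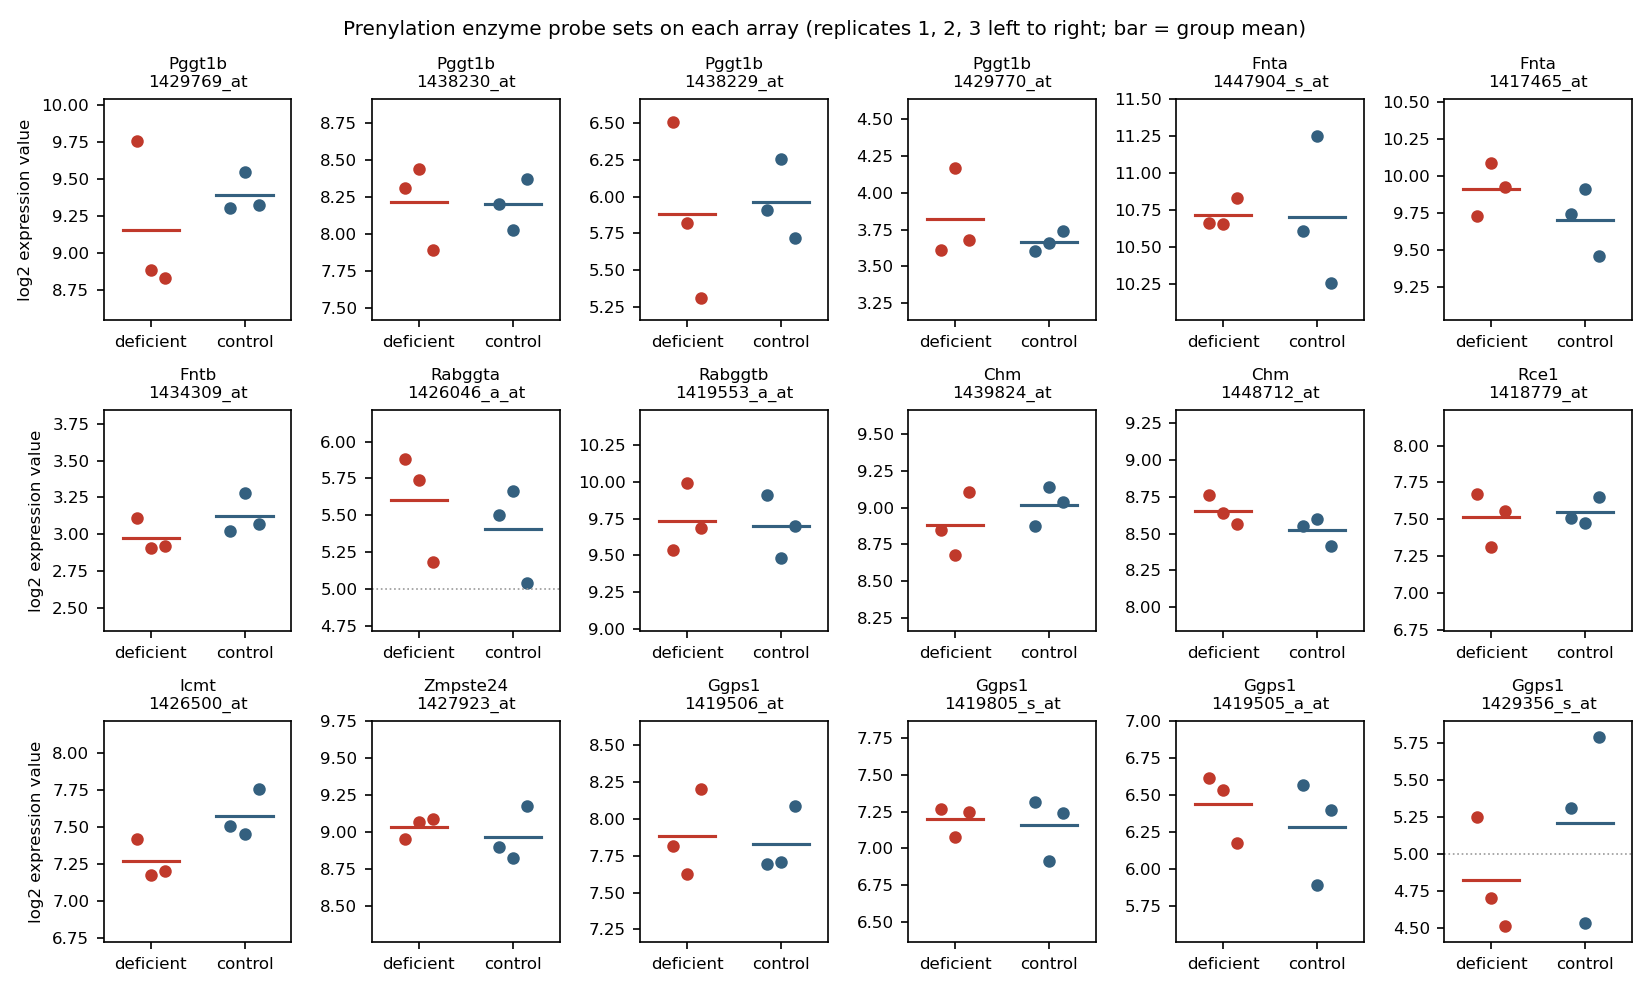
Log2 expression values (y axis) of the 18 prenylation enzyme probe sets on each array, deficient mice left and control mice right, with replicates 1, 2 and 3 from left to right and a bar at the group mean. All panels span the same width on the y axis, and the dotted line, where visible, marks the level 5 used for testing. The groups overlap in every panel except that of Icmt.

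Fnta, the alpha subunit shared by farnesyltransferase and GGTase-I, was measured well above the testing level by both of its probe sets. On 1447904_s_at it read 10.66, 10.65 and 10.83 in deficient mice, against 10.60, 11.25 and 10.26 in control mice. The deficient mice lay inside the range of the controls, which spanned 0.99 on the log2 scale, and the change was 0.01 ± 0.27 (SE, limma adjusted p = 0.984). On 1417465_at the values were 9.73, 10.09 and 9.92 in deficient mice and 9.74, 9.92 and 9.46 in control mice, a change of 0.21 ± 0.19 (SE, limma adjusted p = 0.610). The 95% interval of this second probe set ran from -0.25 to 0.67. The s_at design can match more than 1 transcript, so related sequences may add to the first value.

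Fntb, the farnesyltransferase beta subunit, was represented by 1 probe set that stayed below the testing level on all 6 arrays. It read 3.11, 2.91 and 2.92 in deficient mice and 3.02, 3.28 and 3.07 in control mice. The groups overlapped, and no fold is given because both lay below the level.

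The Rab geranylgeranyl transferase subunits also showed overlapping groups. Rabggta, the alpha subunit, read 5.88, 5.74 and 5.19 in deficient mice and 5.50, 5.67 and 5.04 in control mice, just above the testing level. Its change was 0.20 ± 0.26 (SE, limma adjusted p = 0.722), with a 95% interval from -0.42 to 0.81. Rabggtb, the beta subunit, read 9.53, 9.99 and 9.69 in deficient mice and 9.91, 9.48 and 9.70 in control mice. Deficient mouse 2 was the highest and control mouse 2 the lowest of the 6, while the other two controls lay above the other two deficient mice, and the change was 0.04 ± 0.20 (SE, limma adjusted p = 0.935).

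Chm, the Rab escort protein whose human counterpart is mutated in choroideremia, gave opposite signs on its 2 probe sets. On 1439824_at it read 8.85, 8.68 and 9.11 in deficient mice and 8.88, 9.14 and 9.04 in control mice, a change of -0.14 ± 0.18 (SE, limma adjusted p = 0.722). On 1448712_at the values were 8.76, 8.64 and 8.56 in deficient mice and 8.55, 8.60 and 8.42 in control mice, a change of 0.13 ± 0.16 (SE, limma adjusted p = 0.697). Neither change exceeded its error, and across the 6 arrays the probe sets ran against each other (r = -0.45, rho = -0.43).

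Among the enzymes that act after lipid attachment, Icmt was the 1 gene whose groups did not overlap. Icmt, the carboxyl methyltransferase of prenylated cysteines, read 7.42, 7.18 and 7.20 in deficient mice, against 7.51, 7.45 and 7.76 in control mice. All 3 deficient mice lay below all 3 controls, although deficient mouse 1 and control mouse 2 were nearly equal. The means were 7.27 ± 0.13 in deficient and 7.57 ± 0.16 in control mice (SD, n = 3 each), a log2 change of -0.31 ± 0.17 (SE, limma adjusted p = 0.407). The 95% interval ran from -0.71 to 0.10, and an exact two-sided permutation test gave p = 0.10, the smallest that 3 against 3 arrays allow. Of all probe sets tested, 24.4% had non-overlapping groups, against 1 of 16 here. The Icmt change was between -0.38 and -0.21 when each array was left out in turn, with limma adjusted p from 0.433 to 0.663.

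Rce1, the protease that removes the last residues of CAAX proteins, read 7.67, 7.31 and 7.56 in deficient mice and 7.51, 7.48 and 7.65 in control mice. Its change was -0.03 ± 0.17 (SE, limma adjusted p = 0.936). Zmpste24, the metalloprotease that matures prelamin A, read 8.95, 9.07 and 9.09 in deficient mice and 8.90, 8.83 and 9.18 in control mice, a change of 0.07 ± 0.17 (SE, limma adjusted p = 0.861). For both proteases control mouse 3 was the highest control, and the groups overlapped. The 95% intervals ran from -0.44 to 0.37 for Rce1 and from -0.33 to 0.47 for Zmpste24.

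Ggps1, the synthase of the geranylgeranyl donor, had 4 tested probe sets, 3 of them higher and 1 lower in deficient mice by mean. The brightest, 1419506_at, read 7.81, 7.62 and 8.20 in deficient mice and 7.69, 7.71 and 8.09 in control mice, a change of 0.05 ± 0.22 (SE, limma adjusted p = 0.922). Probe sets 1419805_s_at and 1419505_a_at changed by 0.04 and 0.16, with limma adjusted p of 0.920 and 0.761. In both, control mouse 2 was the lowest of the 6 arrays. The dimmest, 1429356_s_at, read 5.25, 4.70 and 4.51 in deficient mice and 5.31, 4.53 and 5.79 in control mice, so only 3 arrays were above the testing level. Its change of -0.39 ± 0.36 (SE, limma adjusted p = 0.605) was the largest in size among the 16 probe sets and had the widest interval, from -1.23 to 0.45.

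The array pattern of Pggt1b was compared with those of all other genes, as a description. Of 8892 genes represented by their brightest tested probe set, the 5 closest to Pggt1b 1429769_at by Pearson r over the 6 arrays were Ppp6r3, Smg9, Cipc, Ccnl2 and Ccdc85b. Their r values were 0.99, 0.99, 0.98, 0.98 and 0.97, and their Spearman rho values lay between 0.83 and 1. Each was high in deficient mouse 1 and low in deficient mice 2 and 3. Cipc, a regulator of the circadian clock, read 10.40, 8.76 and 8.75 in deficient mice and 9.83, 10.09 and 9.51 in control mice. With 6 arrays and so many genes, high values of r arise readily. None of the other prenylation enzymes was among the 5. By r, Fntb came nearest at 0.82, below the testing level, followed by Icmt at 0.57 and Rce1 at 0.55, while Rabggtb stood at -0.66.

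Lymphocyte markers fell in the deficient preparations, whereas epithelial markers were present throughout. All 11 epithelial marker genes, among them Epcam, Vil1 and Cdh1, were above the testing level on all 6 arrays, and 0 of their 15 probe sets passed. By mean, 12 of the 15 were higher in deficient mice and 3 lower, with a median log2 change of 0.16. The groups did not overlap in 7, all higher, and 2, both higher, had an unadjusted limma p under 0.05. Markers of T cells and intraepithelial lymphocytes had 14 tested probe sets from 12 genes. All 14 were lower in deficient mice with groups that did not overlap, and 12 passed the threshold. Over all probe sets tested, 1.35% passed as lower and 24.4% had non-overlapping groups in either direction. The mean level of all 12 genes in the list, relative to the control mean, was -4.11, -3.32 and -2.55 in deficient mice, against 0.11, -0.06 and -0.05 in control mice. Cd3d, Cd7 and Il2rb lay below 5 on all 3 deficient arrays and entered the test only through the 3 control arrays. Their falls, counted among the 12 probe sets that passed and included in the list mean, were thus partly set by the filter. Of 7 myeloid marker probe sets 3 passed, those of Adgre1, Fcer1g and Tyrobp. All 7 were lower in deficient mice by mean, with a median log2 change of -1.81. That median is the value of Itgax, which entered the test only through the control arrays. The groups did not overlap in 4 of the 7, and they overlapped for Csf1r (-0.64 and -0.54) and Lyz2 (-0.41). Cd68 and Itgam lay below 5 on all 6 arrays and were not tested. Whether the myeloid markers fell separately from the lymphocyte markers was not tested. Of 9 stromal marker probe sets 0 passed (limma), although 7 were lower at an unadjusted p under 0.05 and the median was -1.43. Over all probe sets tested, 16.3% had such a p in either direction. Those 7 stromal probe sets were of Col1a2, Col3a1 and Vim only, whereas Acta2 and Dcn were at 0.06 and 0.13. Col1a2 1423110_at and Col3a1 1427884_at, the latter at the median, entered the test only through the control arrays. The 1 tested B and plasma cell probe set, of Jchain, was at -1.62 and did not pass. For the 9 tested prenylation enzymes the mean level on the same scale was 0.05, -0.11 and -0.05 in deficient mice and -0.04, 0.05 and -0.01 in control mice. In such bulk preparations, fewer cells of a type and less RNA per cell cannot be told apart.

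**Figure D3:**
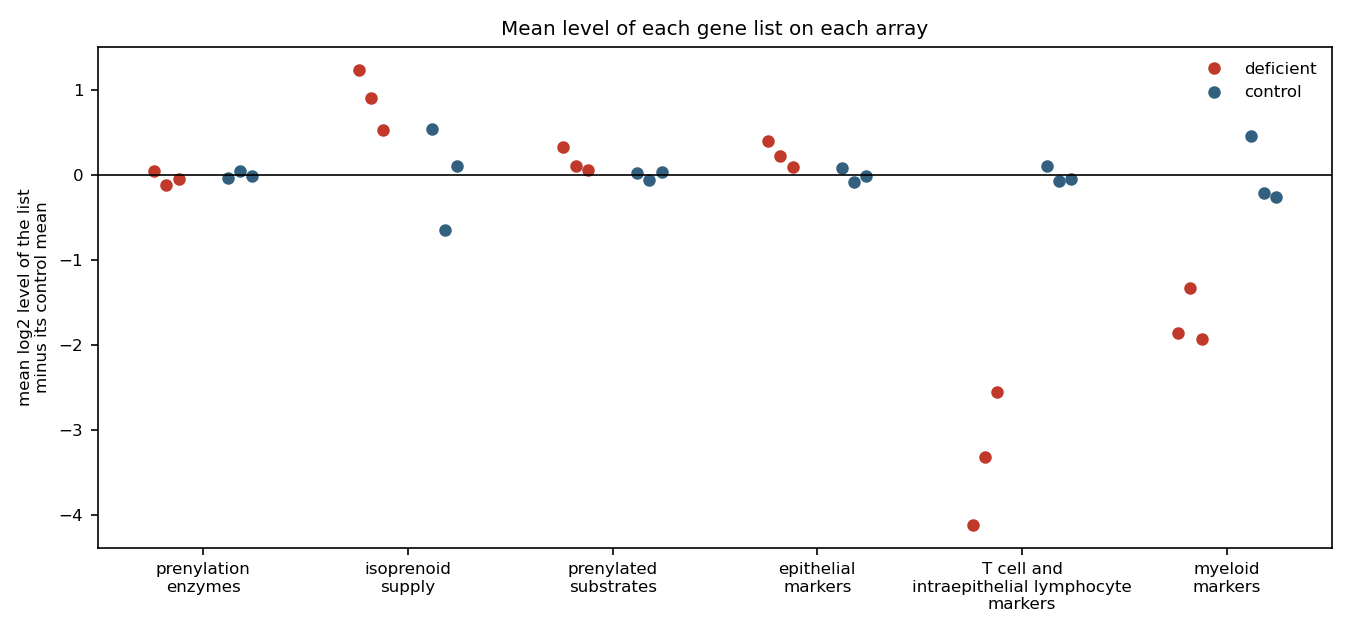
Mean log2 level of each gene list on each array, minus the mean of the 3 controls (y axis), for deficient mice (left of each pair) and control mice (right), with replicates 1, 2 and 3 from left to right. The prenylation enzymes stay between -0.11 and 0.05 on all 6 arrays, while the T cell and intraepithelial lymphocyte markers lie between -4.11 and -2.55 in the deficient mice. The lymphocyte mean includes Cd3d, Cd7 and Il2rb, and the myeloid mean Itgax, which entered the test only through the control arrays.

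Enzymes that supply the isoprenoid precursors were all higher in deficient mice by mean, but no single probe set passed. The list ran from HMG-CoA synthase to farnesyl diphosphate and the enzymes that draw on it. It held 14 genes, of which 11 were measured under 1 symbol, and 22 of their probe sets were tested. The count past the threshold was 0 of 22 (limma), and 9, all of them higher, had an unadjusted p under 0.05. Over all probe sets tested, 16.3% had such a p in either direction. The median log2 change was 0.73, against 0.00 over all probe sets tested, and the single changes ran from 0.05 to 2.64. Without control mouse 2, 19 of the 22 were higher and the median was 0.54, with Coq2, 1 of 5 Hmgcs1 and 1 of 5 Nus1 probe sets below 0. Without deficient mouse 1 or without control mouse 3, 21 of 22 were higher. Several probe sets measured 1 gene, so the 22 are not independent.

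Mvk, mevalonate kinase, read 6.46, 6.42 and 5.72 in deficient mice, against 5.47, 4.05 and 4.44 in control mice. All deficient mice lay above all controls, and the log2 change was 1.55 ± 0.40 (SE, limma adjusted p = 0.164). Control mice 2 and 3 lay below the testing level, so the size of the Mvk change is uncertain. Groups did not overlap in 24.4% of all probe sets tested. Nus1, a subunit of the dolichol-making cis-prenyltransferase, changed by 0.83 ± 0.24 (SE, limma adjusted p = 0.199) on 1420646_at. Its brightest probe set, 1460563_at, was at 0.77, and its other tested probe sets were at 0.58, 0.46 and 0.11. Mvd, mevalonate diphosphate decarboxylase, changed by 1.27 ± 0.40 (SE, limma adjusted p = 0.222) on 1417303_at, or 0.81 without control mouse 2. Fdps, which makes farnesyl diphosphate, the substrate of Ggps1, is added here after its values were seen. It read 9.69, 10.45 and 9.03 in deficient mice and 8.53, 4.49 and 8.22 in control mice, so its change of 2.64 rested largely on control mouse 2 and was 1.35 without it. The mean level of the 11 genes relative to controls was 1.24, 0.91 and 0.54 in deficient mice and 0.54, -0.65 and 0.11 in control mice. Control mouse 2 was the lowest, and control mouse 1 reached the level of deficient mouse 3. Ggps1, which acts next after Fdps, was at 0.05 on its brightest probe set.

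Partners of prenylated proteins, a list of paralogs, chaperones and turnover enzymes, gave 0 of 13 tested probe sets past the threshold (limma), with 2 at an unadjusted p under 0.05. With 16.3% of all probe sets tested at such a p, 2 of 13 lies near the background. The median log2 change was 0.01. Pcyox1, the lysosomal oxidase that breaks down prenylcysteine, read 9.50, 9.83 and 9.66 in deficient mice, against 10.19, 10.24 and 10.02 in control mice on 1447277_s_at. The groups did not overlap, at a log2 change of -0.48 ± 0.17 (SE, limma adjusted p = 0.251), while its second tested probe set changed by -0.09. Gdi2, which extracts Rab proteins from membranes, was at 1.49 ± 0.59 (SE, limma adjusted p = 0.286) on 1431645_a_at, or 0.91 without control mouse 2, and at 0.00 on its brightest probe set. Rabif, a nucleotide-free Rab chaperone, was at 0.22 (limma adjusted p = 0.793), and between -0.11 and 0.51 with 1 array left out. Chml, the second Rab escort protein, and Ptar1, a homologue of the prenyltransferase alpha subunits that pairs with Rabggtb, were at -0.07 and -0.02 on their brightest probe sets, and both took either sign when single arrays were left out.

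Proteins that carry prenyl groups gave 0 of 25 tested probe sets past the threshold (limma), with 5 at an unadjusted p under 0.05, 4 higher and 1 lower. The unadjusted share over all probe sets tested was 16.3%, so 5 of 25 lies near the background. The median log2 change was 0.17. Lmnb2, lamin B2, a farnesylated protein of the nuclear lamina, read 5.23, 5.37 and 5.47 in deficient mice, against 6.35, 6.33 and 6.12 in control mice. All 3 deficient mice lay below all controls, with a gap wider than the spread inside either group, and the log2 change was -0.91 ± 0.16 (SE, limma adjusted p = 0.058). The change was between -0.98 and -0.85 when each array was left out, with limma adjusted p from 0.0897 to 0.226. The T cell markers fell in the same arrays, and their part in the Lmnb2 values was not tested. Rab11a, a GTPase of recycling endosomes, was at 0.77 ± 0.21 (SE, limma adjusted p = 0.182) on its brightest probe set and at 0.07 on the other. Rap1b, a Ras-like GTPase that GGTase-I modifies, was at 1.05 ± 0.34 (SE, limma adjusted p = 0.229) on 1435518_at (0.69 without control mouse 2), at 0.16 on its brightest probe set and at 0.08 on the remaining one. Lmna, whose precursor prelamin A is cut by Zmpste24, was at 0.62 (limma adjusted p = 0.426) on its brightest probe set, or 0.30 without deficient mouse 1 and 0.94 without deficient mouse 3.

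**Figure D4:**
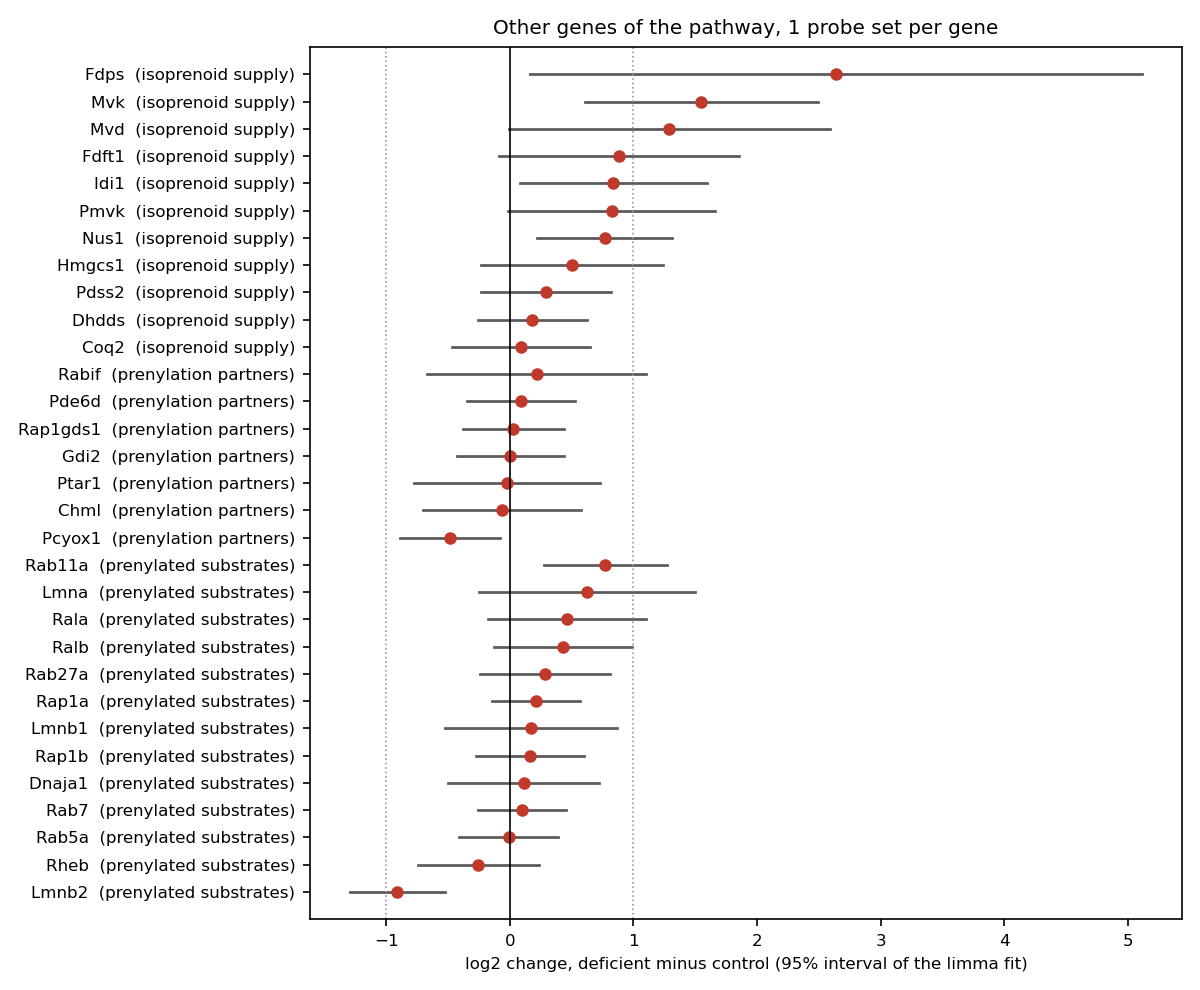
Log2 change (deficient minus control, x axis) of the other pathway genes, each by its brightest tested probe set, grouped by list. Points are limma estimates from 3 arrays per group, lines are 95% intervals and dotted lines mark 2-fold changes. The 11 isoprenoid supply genes all lie to the right of 0, and Lmnb2 lies farthest to the left at -0.91.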

How the data were processed

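Each of 3 deficient and 3 control mice gave 1 Affymetrix array. The table deposited by the authors holds 1 log2 value per probe set and array. GCRMA, which corrects background from probe sequence and gathers unexpressed probe sets near a floor, and Partek 6.5 are listed in the submitters' processing notes, with no step or order. That the values are log2 follows from their range, 0.42 to 16.4. Array medians lay between 3.26 and 3.34, and between 35.6% and 36.5% of probe sets lay above 5. Correlations between arrays ran from 0.955 to 0.981 within a group and from 0.908 to 0.972 between groups. Neither detection calls nor scanner intensities were used, and 3 arrays per group limit the precision.

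A platform annotation gave 1 symbol for 34958 of 45101 probe sets, several for 932 and none for 9211. Entrez IDs of 34754 matched the RefSeq gene table of GRCm38.p6, which changed 0 symbols. After removal of 64 control probe sets, those exceeding 5 (log2) on 3 or more arrays entered limma 3.58.1 in R 4.3.3 (lmFit, eBayes, no covariate), with Benjamini-Hochberg adjustment over all of them at 0.05. The fit ran on probe sets, since these are the units of the group studied. The log2 change is deficient minus control. The procedure was tested on simulated data.

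The members and lists were chosen with earlier results of these data known. All 18 probe sets of the 10 genes were described. From each of the 3 pathway lists (isoprenoid supply, partners, prenylated proteins) the rule named any called gene and the 3 with the smallest p, and it named the 5 genes most like Pggt1b. Chml, Ptar1, Fdps and Lmna were added after their values were seen. A further 5 lists held cell type markers. Alternatives concerned the filter, normalization, variance moderation, array weights, handling of probe sets, a replicate block and the removal of each array in turn.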

Additional observations from a re-analysis of the deposited data

How the results depend on the processing

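Among prenylation enzyme probe sets, 0 passed under any of the 17 alternatives run (other filters, normalizations, moderation, array weights, probe set handling, replicate block, 1 array left out). The number tested was 16 in the main fit, 18 with no filter and 13 with the filter at 6 (log2). It was 9 genes with 1 probe set per gene or with the mean of a gene's probe sets. Over all probe sets, 234 passed, against 65 with no filter (45037 tested), 117 with the mean of a gene's probe sets (7470 genes tested), 145 with the replicate block and 336 with array weights. The range was 89 (without control replicate 1) to 259 (without deficient replicate 3) when 1 array was left out, with 101 without deficient replicate 2 and 133 without control replicate 3. Higher calls, 15 in all, ran from 1 (without deficient replicate 2 or control replicate 1) to 44 (without deficient replicate 3). The cause was not tested. Changes near 0 turned sign: Zmpste24 to -0.0133 and Ggps1 to -0.0524 with array weights, and Ggps1 to -0.0358 with the mean of its probe sets. With 1 array left out, the change ran from -0.21 to 0.28 for Fnta, from -0.11 to 0.18 for Ggps1, from -0.0875 to 0.145 for Rabggtb, from -0.111 to 0.0689 for Rce1 and from -0.0033 to 0.17 for Zmpste24. On their brightest probe sets, or with the mean of a gene's probe sets, Pggt1b, Chm and Icmt stayed negative and Rabggta positive under every alternative that gave a value. Chm was at only -0.0044 with the mean of its probe sets, and its other probe set was positive. The other tested Pggt1b probe sets took either sign with 1 array left out (-0.10 to 0.17 for 1438230_at, -0.39 to 0.21 for 1438229_at).

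The replicate numbers showed no sign of pairing: deviations of same-numbered arrays correlated at 0.03, -0.33 and 0.03. Of 3 deficient arrays, 0 correlated best with their own number. With 3 arrays per group, whose deviations sum to 0, this check cannot show that the samples were unpaired. With the replicate block, Pggt1b was at -0.24 (limma adjusted p = 0.737), and 0 prenylation enzyme or pathway probe sets passed. Values below 5 lie near the GCRMA floor and limit what can be read for Fntb and for the size of the Mvk change.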
